A study of Mus musculus with 15 samples.

Results

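Tumors at the boundary of the greater curvature of the cardia, the part of the stomach next to the esophagus, were compared with normal stomach by bulk RNA sequencing. The comparison holds 6 of the 15 libraries of the study: the 3 tumors labelled as coming from this site and the 3 labelled as normal tissue, here called greater curvature 1 to 3 and normal 1 to 3. The other 9 libraries are tumors of 3 further sites, the antrum, the corpus and the lesser curvature of the cardia, and give the scale against which this site was set. All 15 libraries, the normals included, carry 1 genotype label, on C57BL/6 at 7 to 8 weeks of age: a tamoxifen-activated Cre driven by Pou2f3 (Pou2f3-CreERT), floxed Rb1 and Trp53 (Rb1fl/fl and Trp53fl/fl), and a Myc transgene behind a Cre-removable stop (LSL-MycT58A). Tamoxifen was given once into the peritoneum at 50 mg/kg, and the labelled time is 5 weeks. The Cre is active only in cells that express Pou2f3, so recombined and other cells are mixed in each piece of tissue. The region of the stomach that gave the normal tissue is not stated. The labels call the replicates biological without saying that they came from separate mice, so a p-value here reflects nothing beyond how these samples vary, which may be technical.

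Pou2f3 is the transcription factor that specifies tuft cells, the rare chemosensory cells of the gut lining. The protein of Rb1 holds back the E2F factors that switch on DNA replication, that of Trp53 stops or kills damaged cells, and the altered Myc resists degradation and drives ribosome production and growth. Loss of the first pair with high Myc is a combination known from neuroendocrine carcinomas, tumors that carry secretory granules and markers such as synaptophysin and chromogranin A. The CXCR2 ligands, among them CXCL5, are chemokines that draw neutrophils into tissue.

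Levels are given in CPM, counts per 1000000 after scaling of the library size, and differences as log2 of tumor over normal. A gene counted as called when its adjusted p in edgeR's quasi-likelihood test, from 1 model of all 15 libraries, was below 0.05. Total counts of the 6 libraries ran from 13191324 in greater curvature 1 to 21564972 in greater curvature 2, and 16224 genes could be tested. In the tumors 1055 genes were called higher, 6.5% of those tested, and 448 were called lower, 2.76%. The median log2 difference over all tested genes was -0.01. Of the calls, 70.2% were higher, against 92.9% when the deposited TPM table was fitted with limma, where the median gene was shifted by 0.41 on the log2 scale.

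Greater curvature 2 stood apart from the other tumors of its site. On the first principal component, which held 46.9% of the variance, greater curvature 1 and 3 lay at 60.41 and 70.08, while greater curvature 2 lay at -84.87, among the normals at -62.07, -123.89 and -101.97. A tumor of another site, corpus 1, lay beside it at -86.32. Across the 16224 genes, which are not independent replicates, the Pearson correlation of log2 CPM was 0.948 between greater curvature 1 and 3, 0.854 and 0.857 between greater curvature 2 and each of them, and 0.907, 0.893 and 0.923 between greater curvature 2 and the normals. Greater curvature 2 fell inside the range of the normals for 46.9% of tested genes, against 25.4% for greater curvature 1 and 23.9% for greater curvature 3. Levels below are therefore given by library, and counts by list also without this one where it changed them.

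**Figure D1:**
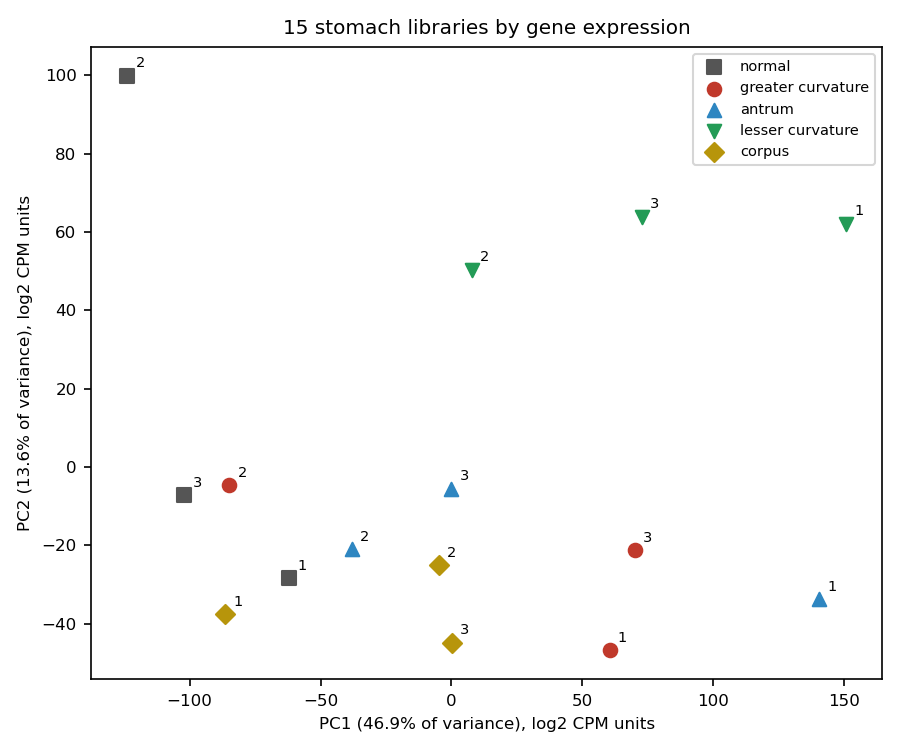
Each point is 1 of the 15 libraries on the first (46.9% of variance) and second (13.6%) principal components of log2 CPM, numbered by replicate and colored by group. Greater curvature 2 lies at -84.87 on the first component, between normal 1 and normal 3, while greater curvature 1 and 3 lie at 60.41 and 70.08. The tumor corpus 1 lies at -86.32.

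The number of calls depended on single libraries. Without greater curvature 2, 2599 genes were called higher, 15.7% of 16596 tested, and 1574 lower, 9.48%. Without greater curvature 1 the counts were 80 and 31, and without greater curvature 3 they were 16 and 3. Without normal 1 they were 144 and 94, without normal 2 they were 279 and 178, and without normal 3 they were 1 and 0. A fit of the 6 libraries alone, with no spread borrowed from the other sites, called 4 genes higher and 0 lower. The 4 were the annexin Anxa8, Cxcl1, Mmp10 and the protease gene Prss22, each at an adjusted p of 0.0443 in edgeR. Of the 1503 genes called with every library, 1088 had an adjusted p under 0.1 without normal 3 and 507 without greater curvature 3. In the fit of the 6 libraries alone this held for 11 of the 1468 that could be tested. For the gene lists below, counts without greater curvature 2 are to be read beside the 15.7% higher and 9.48% lower over all genes.

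**Figure D2:**
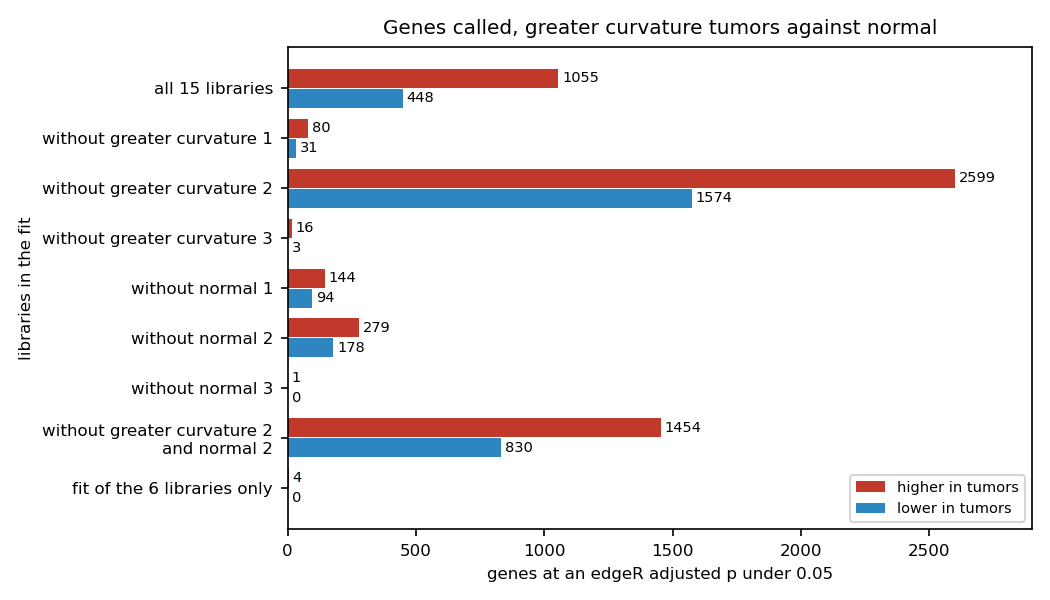
Bars give the number of genes called higher (red) and lower (blue) in greater curvature tumors than in normal tissue by edgeR at an adjusted p under 0.05, for the model of all libraries and for models with libraries left out. The count runs from 1 gene higher and 0 lower without normal 3 to 2599 and 1574 without greater curvature 2.

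Greater curvature 2 was then set against the genes called without it. Of these, 2592 of the 2599 called higher and 1564 of the 1574 called lower were also tested with all libraries and could be used. Over those called higher, the median distance of greater curvature 2 from the mean of the normals was 0.39 in log2 CPM, against 1.51 for greater curvature 1 and 3. Over those called lower it was -0.48 against -1.43. These genes were chosen on greater curvature 1 and 3 and on the same 3 normals, so the sizes are a description.

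The genes of the 4 engineered alleles came first as a check of the labels. Myc was at 245, 103 and 362 CPM in greater curvature 1, 2 and 3 and at 98.4, 51.3 and 39.1 CPM in normal 1, 2 and 3. All 3 tumors lay above all normals, with greater curvature 2 just above normal 1, and the log2 difference of 1.91 (SE 0.63) did not pass with all libraries (adjusted p = 0.0706 in edgeR) and passed without greater curvature 2 (2.27, adjusted p = 0.0269). Counts per gene cannot separate the transgene from the native gene. Rb1 was at 37.5, 47.2 and 45.9 CPM in the tumors and 36.1, 49.5 and 42.7 CPM in the normals. Trp53 was at 70.5, 36.5 and 44.9 CPM against 29.2, 32.4 and 28.1 CPM, a log2 difference of 0.76 (SE 0.34, adjusted p = 0.143). A floxed allele loses only some exons, and counts summed over a gene do not show whether they are there, so these values do not check the deletion. Pou2f3 itself was at 0.975, 2.75 and 0.262 CPM in the tumors and 0.367, 5.32 and 0.612 CPM in the normals, low in all 6, with the groups overlapping.

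Of 14 tested tuft cell genes, 0 were called higher and 1 lower, with a median log2 difference of -0.07. That median rested on greater curvature 2 and normal 2: it was -1.59 without the first and 0.59 without the second, with the same count of calls each time. The gene called lower was Ptgs1, which encodes the prostaglandin enzyme COX-1 and is also expressed outside tuft cells: 13.4, 19.1 and 10.2 CPM in the tumors against 37.8, 44.5 and 69.3 CPM in the normals, -1.83 (SE 0.35, adjusted p = 0.0158). It fell in all 3 tumors, and its highest adjusted p with 1 library left out was 0.0786. The tuft kinase Dclk1 was at 22.7, 30.8 and 30.9 CPM against 9.7, 20.8 and 13 CPM, 0.96 (SE 0.38, adjusted p = 0.111).

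Genes of cell division were higher in all 3 tumors. Of 26 tested genes of DNA replication, 24 were called higher and 0 lower, with a median log2 difference of 1.81, and of 21 mitosis genes 21 were called higher, with a median of 2.20. Mcm4, a subunit of the helicase that opens DNA for copying (chromosome 16, 15623897 to 15637400 on GRCm38), was at 100, 60.8 and 119 CPM in the tumors and 19, 26.7 and 32.7 CPM in the normals. It rose by 1.84 (SE 0.26, adjusted p = 0.0119). Bub1b, a kinase of the spindle checkpoint (chromosome 2, 118598211 to 118641591), was at 66.3, 49 and 129 CPM against 12.6, 17.9 and 11 CPM. It rose by 2.56 (SE 0.38, adjusted p = 0.0119). For both genes greater curvature 2 was the lowest tumor and still above every normal. Kif23, a motor that splits dividing cells, was nearly level in greater curvature 1 and 2, at 54.6, 54.4 and 78.8 CPM against 13.9, 26.3 and 13.1 CPM, and rose by 1.82 (SE 0.27, adjusted p = 0.0119).

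The same order of libraries held across both lists. The median shift from the mean of the normals over the DNA replication list was 1.98, 0.85 and 2.17 in greater curvature 1, 2 and 3, and over the mitosis list 2.33, 1.26 and 2.83. Greater curvature 2 lay inside the normal range for 2 of the 26 replication genes and for 0 of the 21 mitosis genes. The proliferation marker Mki67 was at 466, 196 and 666 CPM against 78.3, 167 and 91 CPM, so greater curvature 2 was close to normal 2. Upstream of replication, 9 of 13 tested E2F factors and G1/S cyclins were called higher and 0 lower. Cyclin E1, which with its kinase starts S phase, stood out in that list: Ccne1 was at 51.8, 17 and 53 CPM against 5.36, 5.58 and 5.89 CPM, a rise of 2.85 (SE 0.45, adjusted p = 0.0122). E2f7, an E2F family repressor, was at 24.2, 11.8 and 31.5 CPM against 5.07, 4.97 and 5.58 CPM, a rise of 2.11 (SE 0.40, adjusted p = 0.0156).

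How many of these genes were called rested on the libraries. With greater curvature 2 left out, 26 of 26 replication genes, 21 of 21 mitosis genes and 10 of the 13 E2F and cyclin genes were called higher. Without greater curvature 1 the counts were 3, 4 and 1, without greater curvature 3 they were 1, 1 and 0, and without normal 3 they were 0, 0 and 0. Without normal 1 they were 7, 4 and 1, and without normal 2 they were 12, 19 and 4. The list medians stayed between 1.57 and 2.08 for replication and between 1.87 and 2.59 for mitosis in these 6 fits.

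Because E2F factors bind the starts of replication genes, the 250 bases before the RefSeq start (GRCm38.p6) were searched for the letters TTCCCGC and TTGGCGC on both strands. Either was present for 9 of the 21 replication genes with a promoter in the table, out of 26 on the list (42.9%), against 6.45% of all 27025 genes with a promoter there. The promoter of Mcm6, another subunit of the helicase (240, 114 and 277 CPM in the tumors, 43.8, 56.4 and 79.3 CPM in the normals, 1.81, adjusted p = 0.015), is shown because it holds the letters TTGGCGC at 2 places, in capitals, at -109 to -103 and -46 to -40 from the start. It lies on the minus strand at chr1:128359706-128359955.
Mcm6 promoter: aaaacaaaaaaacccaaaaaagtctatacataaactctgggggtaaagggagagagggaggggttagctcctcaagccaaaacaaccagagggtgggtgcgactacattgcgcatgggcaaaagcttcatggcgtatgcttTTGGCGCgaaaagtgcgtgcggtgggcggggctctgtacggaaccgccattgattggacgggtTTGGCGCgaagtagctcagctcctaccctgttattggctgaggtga
A match describes the sequence and does not show that a factor binds there.

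Genes of ribosome production, which Myc is known to drive, followed. Of 21 tested, 16 were called higher and 0 lower, with a median log2 difference of 1.53. Nop58, part of the complex that modifies ribosomal RNA, was at 243, 113 and 278 CPM in the tumors and 73.8, 76.8 and 78.4 CPM in the normals. It rose by 1.47 (SE 0.31, adjusted p = 0.022), with greater curvature 2 nearer to the normals than to the other tumors. Dkc1, the pseudouridine synthase dyskerin, was at 137, 55.6 and 182 CPM against 34.2, 33.5 and 31.3 CPM, a rise of 1.92 (SE 0.40, adjusted p = 0.0203). The median shift of the list was 1.67, 0.49 and 2.02 in greater curvature 1, 2 and 3. Leaving out greater curvature 2 gave 20 of the 21 called, and leaving out any other single library of the 6 gave 0, with medians between 1.23 and 1.65 in those 5 fits.

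Of 16 genes of amino acid metabolism and its stress response, 4 were called higher and 0 lower (median 0.47), and 7 without greater curvature 2. Psat1, an enzyme of serine synthesis, was at 160, 62.9 and 159 CPM against 37.3, 43 and 18 CPM, a rise of 1.96 (SE 0.43, adjusted p = 0.0229). Without normal 2, 1 of the 16 was called, and without each of the other 4 libraries 0 were. Of 18 tested p53 targets 1 was called higher and 1 lower, with a median of 0.08, and 5 higher and 1 lower without greater curvature 2 (median 0.26). Among those 5 was Bax, which permeabilizes mitochondria in dying cells, at 85.5, 33.6 and 64.2 CPM against 30.3, 27.6 and 33.9 CPM (1.29 without greater curvature 2, adjusted p = 0.00481). Without both greater curvature 2 and normal 2 the counts were 3 and 1. The p53 target Rrm2b, a subunit of ribonucleotide reductase, was at 16.4, 15.7 and 16.3 CPM in the tumors and 29.1, 21.1 and 26.5 CPM in the normals, and fell by 0.66 in log2 units (SE 0.18, adjusted p = 0.0417, at most 0.143 with 1 library left out). In limma on TPM, where the median gene was shifted by 0.41, its log2 difference was -0.02 (adjusted p = 0.954). The stress cytokine Gdf15 was at 8.36, 1.17 and 1.1 CPM against 0.514, 0.174 and 0.459 CPM, 3.17 (SE 0.82, adjusted p = 0.0375, at most 0.152 with 1 library left out).

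Onecut2 was the gene that stayed called whichever of the 6 libraries was left out. It encodes a transcription factor of the ONECUT family, and was at 137, 70.8 and 91.1 CPM in the tumors (99.5 ± 33.7, SD, n = 3) and 4.11, 1.48 and 4.59 CPM in the normals (3.39 ± 1.67, SD, n = 3). All 3 tumors lay far above all normals. It rose by 4.87 (SE 0.44, adjusted p = 0.00191 in edgeR), with adjusted p-values of at most 0.0267 when each library was left out. In the fit of the 6 libraries alone its adjusted p was 0.0724. The 9 tumors of the other sites held 40 to 84.4 CPM, also above all normals.

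The 12 largest rises by the naming rule, which asks for all 3 tumors above all normals, were Gabrp, Mmp13, Cxcl5, Mmp10, Cdh17, Prss22, Fgb, Cxcl1, Cxcl2, Pax9, Onecut2 and Mme. Gabrp, a subunit of the GABA-A receptor, was at 12, 12.7 and 8.33 CPM in the tumors, while the 3 normals together held 2 counts, so no fold is given. Cdh17, the liver-intestine cadherin, was at 32.7, 3.46 and 14.1 CPM against 0, 0.0872 and 0.382 CPM. Pax9, a transcription factor of the foregut, was at 1.6, 20.1 and 43.3 CPM against 0.22, 0.872 and 1.07 CPM. Greater curvature 2 was the lowest tumor for Cdh17 and greater curvature 1 for Pax9, where it stood close to normal 3. Mme, the membrane peptidase neprilysin, was at 8.22, 25.5 and 4.98 CPM against 0.294, 1.05 and 0.0765 CPM, with greater curvature 2 highest. In edgeR the log2 rises were 6.67 (adjusted p = 0.05 when rounded) for Cdh17, 4.90 (adjusted p = 0.0251) for Pax9 and 4.77 (adjusted p = 0.0337) for Mme. Their highest adjusted p-values with 1 library left out were 0.132, 0.104 and 0.0991, and that of Gabrp was 0.118.

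**Figure D3:**
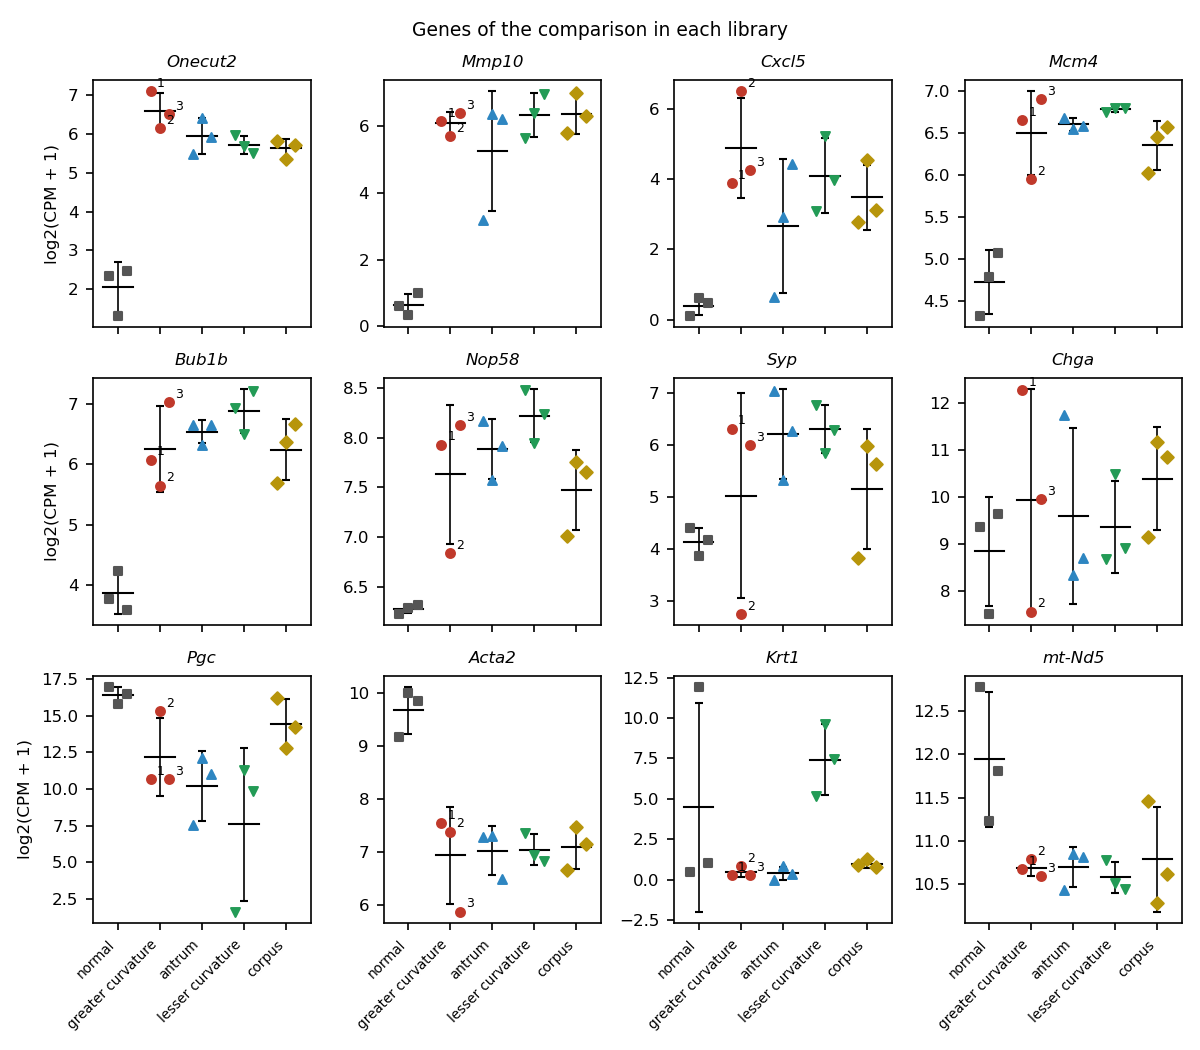
Log2(CPM + 1) of 12 genes in the 15 libraries by group, with the mean and SD (n = 3) in black and the greater curvature tumors numbered. Onecut2, Mmp10, Mcm4 and Bub1b are above all normals in all 3 greater curvature tumors, Acta2 is below, and Syp is at 5.71 CPM in greater curvature 2 against 78.9 and 63.3 CPM in the other tumors of this site.

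Genes of 4 CXCR2 ligands rose. Of 8 tested genes of CXCR2 ligands and receptors, 4 were called higher and 0 lower, with a median log2 difference of 4.41. Cxcl5 (chromosome 5, 90759360 to 90761624) was at 13.8, 89.9 and 18.1 CPM in the tumors and 0.0735, 0.523 and 0.382 CPM in the normals. All tumors lay above all normals, and greater curvature 2 held several times the level of the others. It rose by 6.95 (SE 1.44, adjusted p = 0.0207), and by 5.60 without greater curvature 2 (adjusted p = 0.0149). The ligand gene Cxcl1, on the same chromosome (90891241 to 90893115), was more even, at 16.8, 23.3 and 17.7 CPM against 0.514, 0.262 and 0.306 CPM, and rose by 5.70 (SE 1.05, adjusted p = 0.0152). Cxcl2 was at 15.1, 14.6 and 19.6 CPM against 0.882, 0 and 0.535 CPM, and rose by 5.07 (SE 1.20, adjusted p = 0.0287). Cxcl3 also rose, by 5.79 (adjusted p = 0.0262). Their receptor gene Cxcr2 was at 1.25, 5.4 and 2.2 CPM against 0.661, 2.27 and 0.688 CPM, with overlapping groups (1.30, SE 0.67, adjusted p = 0.196).

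Genes of 5 inflammatory cytokines rose as well. Of 12 tested, 5 were called higher and 0 lower, with a median of 2.78. Il1b, the interleukin 1 beta gene, was at 11.4, 37 and 17.5 CPM in the tumors and 1.47, 0.872 and 0.994 CPM in the normals, and rose by 4.29 (SE 0.84, adjusted p = 0.0175). Il11, a cytokine of the interleukin 6 family, was at 18, 14.4 and 20.3 CPM against 1.1, 1.66 and 1.15 CPM, and rose by 3.75 (adjusted p = 0.0328). Tnf, tumor necrosis factor, was low but clear of the normals, at 2.09, 4.89 and 1.57 CPM against 0.0735, 0 and 0.229 CPM, and rose by 4.69 (SE 0.85, adjusted p = 0.015). Lif, of the interleukin 6 family too, was at 13, 11.9 and 8.75 CPM against 1.76, 0.698 and 1.83 CPM, and rose by 2.96 (SE 0.59, adjusted p = 0.0182). The median shift of the list was 3.21, 3.11 and 2.88 in greater curvature 1, 2 and 3. Its summed level set greater curvature 2 apart, at 138, 658 and 233 CPM in the tumors and 36.8, 380 and 259 CPM in the normals. Most of that sum was Il33, an alarmin of the interleukin 1 family, at 31.7, 496 and 145 CPM against 18.9, 335 and 235 CPM (0.19, adjusted p = 0.944). Leaving out greater curvature 1, 2 and 3 in turn gave 2, 6 and 0 cytokine genes called higher, and leaving out normal 1, 2 and 3 gave 0, 2 and 0. For the CXCR2 list these counts were 1, 4 and 0 and then 0, 1 and 0.

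Matrix metalloproteinases, secreted enzymes that cut the extracellular matrix, were among the largest rises. Of 13 tested genes of these enzymes and their inhibitors, 6 were called higher and 0 lower, with a median log2 difference of 3.44. Mmp10, stromelysin 2 (chromosome 9, 7502352 to 7510240), was at 70.4, 51.4 and 82.2 CPM in the tumors (68 ± 15.5, SD, n = 3) and 0.514, 0.262 and 0.994 CPM in the normals (0.59 ± 0.372, SD, n = 3). The 3 tumors were close together and rose by 6.82 (SE 0.89, adjusted p = 0.00891). Mmp13, collagenase 3 (chromosome 9, 7272514 to 7283331), was at 45.9, 591 and 63.6 CPM against 1.1, 1.83 and 2.22 CPM. Greater curvature 2 carried most of that rise, which was 7.08 (SE 1.29, adjusted p = 0.0152) with it and 4.99 (adjusted p = 0.00652) without it. The inhibitor gene Timp1 had the same pattern, at 13.2, 50.2 and 10.4 CPM against 1.91, 2.09 and 1.45 CPM, a rise of 3.75 (SE 0.66, adjusted p = 0.015). Mmp12, macrophage elastase, was at 9.62, 31.3 and 26.9 CPM against 0.955, 4.01 and 1.3 CPM, a rise of 3.44 (adjusted p = 0.0152). Without greater curvature 1, 2 and 3 in turn 4, 7 and 2 genes of the list were called higher, and without normal 1, 2 and 3 the counts were 1, 4 and 0. The inhibitor genes Timp2 and Timp3 were called lower without greater curvature 2 (-1.09, adjusted p = 0.0175, and -1.38, adjusted p = 0.0198).

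The same 250 bases were searched for TGANTCA, the letters of the AP-1 site. This motif reads alike on both strands, so each site was found on both. It was present for 5 of the 11 genes of the list with a promoter in the table, Mmp3, Mmp7, Mmp10, Mmp12 and Mmp13 (45.5%), against 7.82% of all genes there. The promoters of Mmp10, at chr9:7502092-7502341 on the plus strand, and Mmp13, at chr9:7272264-7272513 on the plus strand, are shown because these genes had the largest rises of the list. The motif is in capitals, at -63 to -57 and -35 to -29 from the RefSeq start.
Mmp10 promoter: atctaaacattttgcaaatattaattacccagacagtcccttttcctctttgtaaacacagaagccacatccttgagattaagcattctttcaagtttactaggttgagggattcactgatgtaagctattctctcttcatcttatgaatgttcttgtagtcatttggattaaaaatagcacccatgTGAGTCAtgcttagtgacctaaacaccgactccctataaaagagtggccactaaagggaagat
Mmp13 promoter: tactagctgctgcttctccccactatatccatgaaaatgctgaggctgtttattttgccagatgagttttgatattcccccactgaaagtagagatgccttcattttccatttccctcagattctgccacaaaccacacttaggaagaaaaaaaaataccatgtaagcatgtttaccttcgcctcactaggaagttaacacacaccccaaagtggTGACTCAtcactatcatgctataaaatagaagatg
For the smooth muscle list, described later, only the strict CArG box was searched, CCWWWWWWGG with W for A or T. It was present in 0 of 10 promoters in the table, against 1.62% of all genes. Boxes with a G or C in the core were not counted, so this does not show that these promoters lack a CArG box.

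Clotting genes that the liver normally makes were also called. Of 10 tested genes of fibrinogen, coagulation and plasminogen activation, 4 were called higher and 0 lower, with a median of 1.90. Fgb, the fibrinogen beta chain, was at 19.8, 1.22 and 16.2 CPM in the tumors and 0.22, 0 and 0.229 CPM in the normals, so greater curvature 2 stood far below the other tumors. It rose by 6.26 (SE 1.38, adjusted p = 0.0238). The gamma chain gene Fgg was at 8.36, 0.713 and 2.88 CPM against 0.22, 0 and 0 CPM. It was called higher (adjusted p = 0.0351), and since the 3 normals together held 3 counts, no fold is given. The list again had 4 calls without greater curvature 2, without normal 1 or normal 2 it had 1 each, and without each of the other 3 libraries 0.

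Markers of white blood cells gave a mixed picture. In bulk tissue, fewer cells of a type and less RNA per cell cannot be told apart. Of 12 tested neutrophil genes 3 were called higher, with a median of 1.49 and summed levels of 137, 117 and 70 CPM in greater curvature 1, 2 and 3 against 30.3, 22.3 and 19.5 CPM in the normals. Csf3r, the receptor of the neutrophil growth factor G-CSF, was at 2.3, 12.2 and 3.61 CPM against 1.18, 0.611 and 1.07 CPM. It rose by 2.65 (SE 0.68, adjusted p = 0.0355), a call that was lost whichever single library was left out. Without greater curvature 2 the rise was 1.63 (adjusted p = 0.0544), and the highest adjusted p was 0.102, without normal 2. Of 15 macrophage and monocyte genes 3 were called higher and 0 lower, with a median of 0.55. Cd14, a receptor for bacterial lipopolysaccharide, was at 25.6, 35.7 and 25.9 CPM against 5.14, 4.8 and 5.2 CPM and rose by 2.52 (SE 0.42, adjusted p = 0.0147). Lyz2, the lysozyme of macrophages and neutrophils, was at 54.8, 146 and 99.4 CPM against 48.3, 40.6 and 44 CPM and rose by 1.18 (SE 0.32, adjusted p = 0.045). That call was kept without greater curvature 1 (adjusted p = 0.0436) and lost without any other single library. Without greater curvature 2 the rise was 0.80 (adjusted p = 0.0683), and the highest adjusted p was 0.141, without greater curvature 3. The defining macrophage receptors Adgre1 and Csf1r differed by 0.55 (adjusted p = 0.378) and 0.35 (adjusted p = 0.477). The neutrophil and macrophage lists had 2 and 5 calls higher without greater curvature 2, and of the macrophage list Ly6c2, a surface marker of inflammatory monocytes, was then called lower (-2.17, adjusted p = 0.0484). In that fit 15.7% of all tested genes were called higher and 9.48% lower. The 2 of 12 neutrophil genes called higher and the 1 of 15 macrophage genes called lower were near or below these shares. Without greater curvature 1 the neutrophil and macrophage lists had 0 and 2, without normal 1 or normal 2 they had 0 and 1, and without greater curvature 3 or normal 3 they had 0. B cell and mast cell genes had 0 calls of 5 and 9 tested. The mast cell median was -1.55, and -4.45 without greater curvature 2, where Fcer1a, part of the high-affinity IgE receptor, was called lower (0.0697, 1.73 and 0 CPM in the tumors against 1.1, 8.46 and 2.52 CPM, -6.69, adjusted p = 0.0476). That 1 of 9 was near the share of all tested genes called lower there, 9.48%. The B cell median was -0.22, and -1.01 without greater curvature 2.

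Neuroendocrine markers split the tumors. Of 27 tested, 0 were called in either direction with all libraries, although the median log2 difference was 1.55. All 3 tumors lay above all normals for 1 of them, against 15.2% of all tested genes, and below all normals for 6, against 14.7%. Syp, synaptophysin of the secretory vesicle, was at 78.9, 5.71 and 63.3 CPM in greater curvature 1, 2 and 3 and 20, 13.5 and 17 CPM in normal 1, 2 and 3. Greater curvature 1 and 3 lay above all normals and greater curvature 2 below them. The log2 difference was 1.55 (SE 0.78, adjusted p = 0.19), and 2.08 without greater curvature 2 (adjusted p = 0.0288). Chga, chromogranin A, was at 4969, 187 and 994 CPM against 655, 181 and 798 CPM, with greater curvature 1 far above the rest and greater curvature 2 beside normal 2 (1.91, SE 1.17, adjusted p = 0.269). Summed over the list, the tumors held 5985, 326 and 2809 CPM and the normals 1043, 400 and 1538 CPM.

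Low in all 3 tumors were Pcsk2, a protease that matures prohormones, at 4.11, 2.85 and 4.29 CPM against 10.3, 11 and 65.6 CPM (-2.95, SE 0.88, adjusted p = 0.055), and Resp18, a protein of the secretory pathway, at 2.79, 3.36 and 1.83 CPM against 8.23, 9.16 and 22.6 CPM (-2.32, SE 0.72, adjusted p = 0.0614). Neither passed the test.

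The transcription factors of this lineage differed between tumors as well. Neurod1 was at 23.5, 0.56 and 44.7 CPM against 20.5, 0.785 and 7.72 CPM, and greater curvature 1 was close to normal 1. Insm1, another factor of neuroendocrine cells, was at 81.1, 2.55 and 152 CPM against 17.4, 1.66 and 10.1 CPM. With greater curvature 2 left out, 13 of the 27 markers were called higher and 1 lower, with a median of 2.08. Of all tested genes that fit called 15.7% higher and 9.48% lower. Without both greater curvature 2 and normal 2, the normal with the lowest sum, 0 were called higher and 1 lower, with a median of 1.94. The gene called lower without greater curvature 2 was Isl1, a factor of endocrine cells, at 3, 10.2 and 3.72 CPM against 49.2, 12 and 37.2 CPM (-3.28, adjusted p = 0.0198), and with all libraries its adjusted p was 0.0504.

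The rule that looks for genes on which greater curvature 2 fell below the other tumors of its site named Neurod1, Gpr26, Hrh3, Zbed6, Cplx1, Nefh, Gabra5 and Scn8a. Cplx1, complexin of the vesicle fusion machine, was at 87.8, 1.43 and 157 CPM in the tumors and 19.3, 2.09 and 5.35 CPM in the normals. Nefh, a neurofilament, was at 77.1, 1.58 and 84.2 CPM against 16.3, 2.27 and 3.13 CPM, and the sodium channel gene Scn8a at 40.6, 1.12 and 59 CPM against 6.76, 0.96 and 2.29 CPM. For all 3 genes greater curvature 2 was at or near the lowest normal. That is what the rule selects, so the levels are a description, and with all libraries the adjusted p-values were 0.139, 0.17 and 0.0923. Endocrine cells of normal stomach were represented by 12 hormone and amine genes, of which 0 were called (median -1.89, and -1.68 over 13 genes without greater curvature 2): ghrelin, Ghrl, was at 22.5, 267 and 84.2 CPM against 936, 542 and 942 CPM (-2.70, adjusted p = 0.141). Gastrin, the hormone of the antrum, was listed at 0 in all 3 tumors, and Gast was at 0, 37.1 and 604 CPM in the normals, so normal 1 was at 0 as well.

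**Figure D4:**
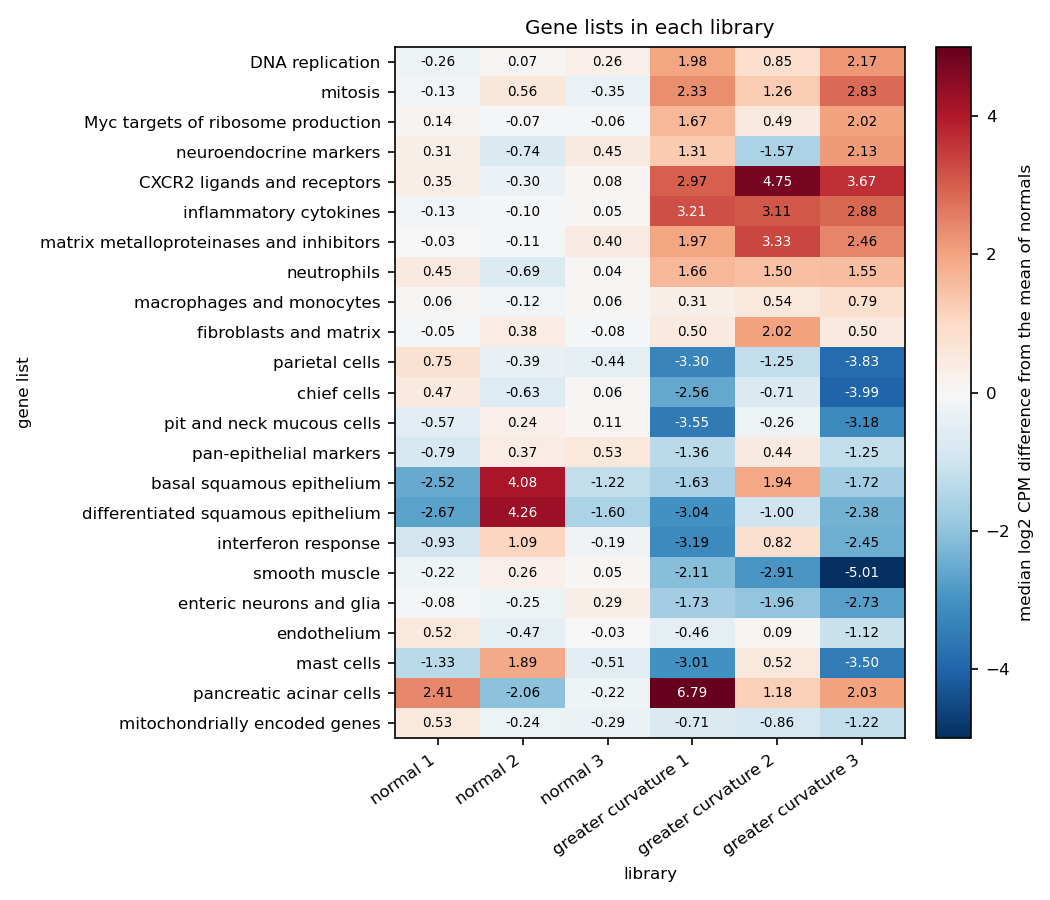
Each cell gives the median over the tested genes of a list of log2 CPM minus the mean of the 3 normals, for the 3 normals and the 3 greater curvature tumors. Mitosis genes are at 2.33, 1.26 and 2.83 in greater curvature 1, 2 and 3, neuroendocrine markers at 1.31, -1.57 and 2.13, chief cell genes at -2.56, -0.71 and -3.99, and differentiated squamous genes at 4.26 in normal 2.

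Genes of the acid and pepsin secreting glands were low in greater curvature 1 and 3 and kept in part in greater curvature 2. Of 11 tested parietal cell genes 0 were called higher and 1 lower, with a median of -2.51. Atp4a, the proton pump of parietal cells, was at 98.7, 1717 and 94.6 CPM in the tumors and 5142, 3346 and 2546 CPM in the normals. All tumors lay below all normals, yet the log2 difference of -2.53 did not pass (adjusted p = 0.246). Esrrg, a nuclear receptor of parietal cells, was the one called, at 44.9, 66.9 and 60.7 CPM against 334, 119 and 130 CPM (-1.76, SE 0.43, adjusted p = 0.0308, at most 0.117 with 1 library left out). Leaving out greater curvature 2 gave 6 of the 11 called lower, with a median of -3.43, without normal 2 there was 1, and without each of the other 4 libraries 0.

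Chief and mucous cell genes had the same order. Pgc, the pepsinogen of chief cells, was at 1617, 40249 and 1605 CPM against 125472, 57013 and 90203 CPM. Greater curvature 2 was thus near normal 2 and far above the other tumors of its site, and the log2 difference was -2.65 (SE 1.82, adjusted p = 0.321) with it and -5.82 (adjusted p = 0.0746) without it. Of 5 chief cell genes 0 were called, and of 10 pit and neck mucous cell genes 0 were called, with 1 lower without greater curvature 2. That gene was Gkn3, a secreted protein of mucous neck cells, at 78.9, 157 and 10.6 CPM against 4695, 635 and 996 CPM (-5.56, adjusted p = 0.0427). Without greater curvature 2, 9.48% of all tested genes were called lower, so the 1 of 10 was near that share. Summed over the lists, chief cell genes were at 2134, 44289 and 1893 CPM in the tumors and 60978 to 135913 CPM in the normals, and mucous cell genes at 7138, 67512 and 8881 CPM against 103517 to 110769 CPM. How much normal gland each piece of tumor held was not tested.

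Part of the largest falls rested on normal 2. Of the 12 largest falls by the naming rule, Lor, Dapl1, Klk8, Elmod1, Pla2g4f and Tmprss13 were high in normal 2 alone, and the other 6 were Pln, Cybrd1, Inmt, Tacr2, Cyp2b10 and Hand2. Inmt, a methyltransferase of amines, was at 0.279, 0.204 and 0.0524 CPM in the tumors and 5.73, 2.97 and 22 CPM in the normals (-5.81, SE 1.13, adjusted p = 0.0171, at most 0.0823 with 1 library left out). Cybrd1, an iron reductase of absorptive epithelium, was at 7.11, 12.2 and 4.82 CPM against 78.9, 325 and 1309 CPM (-6.15, SE 1.51, adjusted p = 0.0317, at most 0.144 with 1 library left out). The rule asks for all tumors below all normals, so this holds for all 12 genes by the way they were chosen. Lor, the loricrin of cornified squamous epithelium, was at 0.139, 0.204 and 0.0524 CPM in the tumors and 1.1, 1082 and 0.229 CPM in the normals. Krt1, a keratin of the same layer, was at 0.209, 0.815 and 0.21 CPM against 0.367, 3886 and 1.07 CPM. Normal 2 lay far above the other 5 libraries, and normal 1 and 3 were close to the tumors. With all libraries 4 of 23 tested genes of differentiated squamous epithelium were called lower and 0 higher, with a median of -4.45. Without normal 2, 0 were called and the median was 0.47. Without greater curvature 2 or normal 1 there were 2 each, and without greater curvature 1, greater curvature 3 or normal 3 there were 0. The mouse stomach has a squamous forestomach beside its glands, and summed levels of this list were 1154, 18422 and 3169 CPM in the normals. The squamous stem cell factor Trp63 was at 0.139, 3.77 and 0 CPM in the tumors and 0, 42.2 and 0.0765 CPM in the normals, and the basal keratin Krt5 at 0.0697, 43.5 and 0.314 CPM against 0.294, 333 and 0 CPM. Of these 6 libraries greater curvature 2 and normal 2 held most of both genes. The lesser curvature tumors averaged 15.6 CPM of Trp63 and 175 CPM of Krt5, more than greater curvature 2.

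Smooth muscle genes were lower in all 3 tumors. Of 14 tested, all 14 lay below all normals in every tumor, against 14.7% of all tested genes, and 10 were called lower and 0 higher, with a median of -2.94. Smtn, smoothelin of contractile muscle (chromosome 11, 3517523 to 3540612), was at 35.5, 47.1 and 22.3 CPM in the tumors (35 ± 12.4, SD, n = 3) and 135, 132 and 195 CPM in the normals (154 ± 35.1, SD, n = 3). It fell by 2.14 in log2 units (SE 0.28, adjusted p = 0.00891). Acta2, the smooth muscle actin (chromosome 19, 34241090 to 34255590), was at 186, 166 and 57.4 CPM against 579, 1032 and 922 CPM, and fell by 2.63 (SE 0.43, adjusted p = 0.0144). Greater curvature 3 was the lowest tumor for both. Mylk, the kinase that starts contraction, was at 65.8, 69.8 and 23.1 CPM against 228, 436 and 468 CPM, and fell by 2.83 (SE 0.45, adjusted p = 0.0123). Pln, phospholamban, a brake on the calcium pump, was at 0.209, 0.713 and 0 CPM against 10.4, 22.9 and 53 CPM (-6.49, SE 1.24, adjusted p = 0.0156). Without greater curvature 1, 2 and 3 in turn 5, 10 and 1 of the 14 were called lower, and without normal 1, 2 and 3 the counts were 6, 5 and 0. The medians of those fits lay between -3.61 and -2.52. In this list greater curvature 2 was inside the normal range for 0 genes.

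Some genes of the nerve plexus in the muscle layer fell too. Of 14 tested genes of enteric neurons and glia 4 were called lower and 0 higher, with a median of -2.11. Hand2, a factor of enteric neurons that is also expressed in gut mesenchyme, was at 2.37, 1.68 and 0.419 CPM in the tumors and 20.1, 19.6 and 41.7 CPM in the normals, and fell by 4.19 (SE 0.79, adjusted p = 0.0154). Sox10, the factor of enteric glia, was at 0.0697, 0.255 and 0.0524 CPM against 1.1, 1.4 and 2.91 CPM, and fell by 3.73 (SE 0.78, adjusted p = 0.0209). Tacr2, the neurokinin receptor of gut muscle, was at 0.697, 0.662 and 0.157 CPM against 7.57, 10.6 and 27.1 CPM, and fell by 4.89 (SE 1.10, adjusted p = 0.0246). Elavl4, a neuronal RNA-binding protein that is also on the neuroendocrine list, was at 22, 1.58 and 96 CPM against 7.13, 3.05 and 5.5 CPM (2.93, adjusted p = 0.101). The list had 4 genes called lower and 2 higher without greater curvature 2. Without normal 1 or normal 2 there were 2 lower each, and without greater curvature 1, greater curvature 3 or normal 3 there were 0. How much muscle wall each piece of tissue included was not tested.

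Genes of fibroblasts and matrix were higher in part. Of 15 tested, 3 were called higher and 0 lower, with a median of 1.14. Pdgfrb, the receptor for platelet-derived growth factor on fibroblasts and pericytes, was at 75.6, 79.6 and 66.2 CPM in the tumors and 24, 13.9 and 22.6 CPM in the normals, and rose by 1.87 (SE 0.32, adjusted p = 0.015). The 3 tumors were close together. Inhba, the activin A subunit, was at 28.7, 64.1 and 40.4 CPM against 0.955, 3.05 and 2.68 CPM, and rose by 4.32 (SE 0.93, adjusted p = 0.0222). Col1a1 was at 227, 2769 and 277 CPM against 90.1, 117 and 41.1 CPM. Its call (3.72, SE 0.94, adjusted p = 0.0351) was lost whichever single library was left out. Without greater curvature 2 its rise was 1.61 (adjusted p = 0.0605), and its highest adjusted p was 0.11, without normal 3. Cdh2, N-cadherin of mesenchymal and neural cells, was the one called of 8 mesenchymal transition genes, at 40.4, 42.6 and 53.1 CPM against 8.67, 4.27 and 4.28 CPM (2.98, SE 0.45, adjusted p = 0.0119). Endothelial genes had 0 calls of 11 tested, with and without greater curvature 2. The fibroblast list had 2 calls without greater curvature 2, without greater curvature 1, normal 1 or normal 2 it had 1 each, and without greater curvature 3 or normal 3 it had 0. The 2 of 15 without greater curvature 2 were no more than the share of all tested genes called higher in that fit, 15.7%.

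Greater curvature 2 also carried genes of bone-forming cells. The rule that looks for genes on which it exceeds the other tumors of its site named Sp7, Panx3, Mug1, Clca1, Ltf, Car3, Acan and Wif1, and Sp7 is the factor that commits cells to the osteoblast lineage. A list of 19 bone-forming genes was then picked, after values had been seen, so it gets no test. Greater curvature 2 had the highest level of the 15 libraries for 17 of the 19, a count that the way of picking helped to fix. Over all 16224 tested genes it was highest for 994 (6.13%), given only for scale. In 4 of the 19, Bglap, Bglap2, Mepe and Sost, its level was under 1 CPM, though Mepe and Sost are among the 17. For Spp1, osteopontin, it was at 720 CPM beside 703 CPM in corpus 1. Summed over the list, greater curvature 1, 2 and 3 held 737, 7306 and 788 CPM and the normals 268, 473 and 346 CPM. Most of the sum in the 3 tumors was Col1a1, at 227, 2769 and 277 CPM, and Col1a2, at 240, 2405 and 237 CPM. Both are also on the list of fibroblasts and matrix, so the sum is not particular to bone-forming cells.

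Ibsp, bone sialoprotein, was at 0.209, 949 and 1.41 CPM in the tumors and 0.0735, 0 and 0 CPM in the normals, and next after greater curvature 2 came lesser curvature 2, with 46.3 CPM. Sp7 was at 0.0697, 62.8 and 0.0524 CPM and was listed at 0 in all normals, with 5.93 CPM in lesser curvature 2. Runx2, the factor upstream of Sp7, was at 3.48, 66 and 6.7 CPM against 5.14, 2.79 and 4.13 CPM, so greater curvature 1 and 3 were near the normals. The phosphatase gene Alpl was at 24.3, 139 and 31.4 CPM against 8.74, 1.31 and 2.98 CPM, and the parathyroid hormone receptor gene Pth1r at 2.16, 53.6 and 3.61 CPM against 2.42, 2.09 and 2.06 CPM. Markers of late osteoblasts and osteocytes were mixed. In greater curvature 2 Dmp1, Phex and Ifitm5 were at 26.7, 23.3 and 8.41 CPM, above the next highest libraries at 7.34, 3 and 1.23 CPM, while Bglap, Bglap2, Mepe and Sost were at 0, 0.102, 0.255 and 0.509 CPM. Of 5 cartilage genes, also picked after values were seen, 1 was highest in greater curvature 2, Acan at 15.1 CPM, while Col2a1 was at 8.92 CPM there and at 18.5 CPM in lesser curvature 2. Of 5 genes of bone-resorbing cells, picked likewise, 2 were highest in greater curvature 2. What gave this library its bone-forming genes was not tested.

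**Figure D5:**
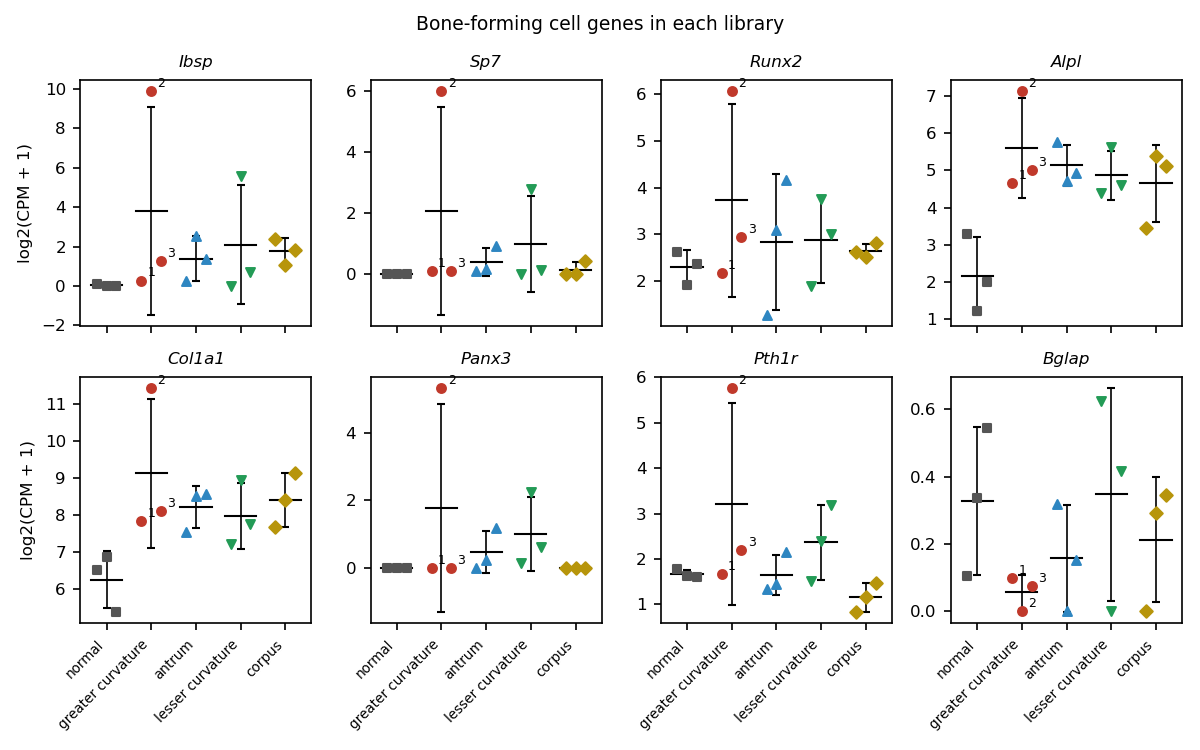
Log2(CPM + 1) of 8 genes of bone-forming cells in the 15 libraries by group, with the mean and SD (n = 3) in black and the greater curvature tumors numbered. Greater curvature 2 is the highest library for 7 of the 8, with Ibsp at 949 CPM, and Bglap, a marker of late osteoblasts, is at 0 there.

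A different set of genes marked greater curvature 1. Of 10 tested genes of the pancreatic acinar cell 0 were called, but their sum was 10875 CPM in greater curvature 1 against 325 and 949 CPM in greater curvature 2 and 3 and 503, 146 and 185 CPM in the normals. The trypsinogen gene Prss2 was at 125, 1.63 and 12.3 CPM against 3.75, 0 and 0.382 CPM (5.04, SE 1.76, adjusted p = 0.0807), and was the 1 acinar gene called higher without greater curvature 2 (5.61, adjusted p = 0.0304). That 1 of 11 tested was below the share of all tested genes called higher in that fit, 15.7%. Whether pancreas adhered to the piece of greater curvature 1 was not tested. Genes of the mitochondrial genome were lower on the count scale, with 3 of 10 called lower and 0 higher (median -0.84). Of them mt-Nd5, a subunit of respiratory complex I, was at 1637, 1765 and 1544 CPM against 7021, 2405 and 3592 CPM (-1.40, SE 0.39, adjusted p = 0.0459). With TPM values 0 of the 10 were called and the median was -0.30, on a scale where the median gene over all genes was shifted by 0.41. There were 3 calls without greater curvature 2, without normal 2 there was 1, and without each of the other 4 libraries 0.

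Against tumors of the other 3 sites, the greater curvature tumors had 0 genes called in either direction (0% of 16224) by edgeR, where the smallest adjusted p was 1, and 365 genes (2.25%) had an unadjusted p under 0.05. DESeq2 called 8 genes higher and 18 lower. Those called higher by DESeq2 included Mme, Pax9, Pth1r, Pygo1, Pzp, Rgs3 and Tmem236. Some of the DESeq2 calls rested on few libraries. For Pth1r only greater curvature 2, at 53.6 CPM, lay above the other sites, which reached 8.12 CPM. Pax9 was at 1.6 CPM in greater curvature 1, against a median of 1.82 CPM at the other sites. Among the 18 lower, Kprp, Lce3a and Lce3b were at 0 in the greater curvature tumors and at a median of 0 CPM at the other sites. By list, the median log2 difference from the other sites in edgeR was -0.02 for DNA replication, -0.16 for mitosis, 0.16 for smooth muscle, 0.68 for metalloproteinases and their inhibitors and 0.89 for CXCR2 ligands and receptors, beside 0.02 over all genes. Maob, a monoamine oxidase, was at 2.79, 6.16 and 3.46 CPM in the greater curvature tumors against 16.7 ± 7.79 CPM (SD, n = 9) at the other sites, among the 18 lower by DESeq2, and in edgeR its difference was -1.91 (unadjusted p = 0.000112, adjusted p = 1).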

How the data were processed

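RNA of mouse stomach tissue was sequenced in bulk as paired reads of 100 bases. The deposited count table holds estimated counts for 36144 genes, given as whole numbers, and the other deposited table holds TPM: its name says FPKM, yet every column sums to 1000000. Per the submitters' processing notes, bcl2fastq 2.19, kallisto 0.44.0, sleuth, DESeq2 and GRCm38.p6 were used by the authors, with no role or order given. In each of the tables, 26 symbols had been turned into dates.

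Counts were fitted in edgeR 4.0.16 (R 4.3.3) with filterByExpr at a minimum count of 10, TMM scaling, and 1 robust quasi-likelihood model of all 15 libraries by group. Adjusted p-values are by Benjamini and Hochberg over all tested genes, from edgeR unless another tool is named, and SE is the standard error of the log2 difference. Log2 CPM for principal components used a prior count of 2. The scripts were tested on simulated counts. The alternatives were DESeq2 1.42.0, its size factors in edgeR, no filter, a replicate block, a fit of the compared groups alone, limma 3.58.1 on log2(TPM + 1) and log2(TPM + 0.1) for genes with a TPM of 1 in 3 samples and with no filter, a test against a 1.5-fold change, and leaving out libraries.

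Genes were named by a rule: the alleles and lineage genes, the 12 largest called changes in each direction with groups that do not overlap and at least 10 CPM on the higher side, up to 3 members of each of 42 lists with the smallest p, and 8 genes in each direction that set greater curvature 2 apart. A part of the rule for calls against the other sites named none. Further members of a list, the 19 bone-forming, 5 cartilage and 5 bone-resorbing genes, and genes of the DESeq2 result were picked after their values were seen. The comparison, lists and members were chosen with earlier results of these data known. Coordinates are from GENCODE M21, matched by symbol, and promoters from RefSeq. Counts are per gene symbol, so reads of close paralogs such as Cxcl1 and Cxcl2 or the trypsinogens may have been split by estimation. Comparisons among the other tumor sites were not used here. Some genes that meet the rule or belong to a list are not reported here.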

Additional observations from a re-analysis of the deposited data

Results flagged for a closer look

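Of the genes named, Plagl1 and Zdbf2 had all greater curvature tumors and all antrum tumors on opposite sides of all normals, and Rgs3 had all greater curvature and all lesser curvature tumors so. Plagl1, a zinc finger factor from an imprinted locus, averaged 32.5 CPM in the greater curvature tumors and 72.8 CPM in the antrum tumors, with normals from 53.2 to 64.4 CPM. Zdbf2, also an imprinted gene, averaged 0.428 CPM in the greater curvature tumors and 58.3 CPM in the antrum tumors, with normals from 1.15 to 1.74 CPM. Rgs3, a regulator of G protein signaling, averaged 39.9 CPM in the greater curvature tumors and 20.7 CPM in the lesser curvature tumors, with normals from 26 to 28.7 CPM. These genes were picked from those that DESeq2 called different from the other sites. A difference between sites was thus partly fixed by that choice, so the values are a description. The differences between 2 tumor sites were not tested.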

How the results depend on the processing

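Against normal, 1055 genes were called higher and 448 lower. DESeq2 gave 2417 and 1364, DESeq2 size factors 1100 and 426, no filter 737 and 227, the fit of the compared groups alone 4 and 0, a 1.5-fold threshold 153 and 66, and leaving out greater curvature 2 and normal 2 together 1454 and 830. In limma, log2(TPM + 1) gave 2930 and 223, log2(TPM + 0.1) 3272 and 198, and no filter 1921 and 192. Leaving out each library gave 1 to 2599 higher and 0 to 1574 lower. The replicate block gave 985 and 511. Same-numbered normal and greater curvature libraries deviated together with correlations of 0.427, 0.321 and 0.088. Libraries with different numbers ran from -0.411 to 0.173. Each normal had its highest value with the tumor of its own number, while greater curvature 3 correlated better with normal 1 (0.173). The labels do not say whether a number stands for 1 mouse, and these values do not decide it. The numbers were not taken as pairs outside the replicate block. Same-numbered antrum and greater curvature libraries, in the order 1 to 3, were at 0.651, 0.693 and -0.177. For lesser curvature with greater curvature the values were 0.405, 0.548 and 0.158, and for corpus with greater curvature -0.405, -0.347 and 0.417. The main model took all 15 libraries as independent. Against the other sites 0 genes were called, but 8 higher and 18 lower by DESeq2, 2 higher by limma without a filter (Gm14633 and Gm47885), and 0 to 1 higher with each library left out (Rpl34-ps1, without corpus 2). Pou2f3, Rb1, Krt5 and Trp63, none of them called with all libraries, changed sign in some settings. With each library left out, their log2 differences ran from -1.76 to 1.43, -0.08 to 0.15, -9.04 to 6.55 and -7.64 to 4.87. Without greater curvature 2 and normal 2 those of Pou2f3, Krt5 and Trp63 were 0.31, 0.43 and 0.63. Car3 and Wif1, named for their level in greater curvature 2 and not called, also changed sign: with each library left out they ran from -3.47 to 2.22 and from -1.44 to 3.04, and without greater curvature 2 and normal 2 they were at -3.23 and -1.20. Car3 was at -0.05 with the replicate block and at -0.02 with log2(TPM + 0.1). Usp18, Il33 and Dmp1, also not called, ran from -3.12 to 0.18, -1.15 to 0.82 and -1.14 to 4.50 with each library left out, and Il33 was at -0.52 without greater curvature 2 and normal 2. Timp2 was at 0.06 in the 3 limma fits. The cause was not tested. Of the 124 genes named in the text that were tested, 66 were called against normal. Their calls were lost for 65 without normal 3, 60 without greater curvature 3, 45 without greater curvature 1, 45 without normal 1, 34 without normal 2 and 5 without greater curvature 2, and for 0 by DESeq2. At these depths Gabrp and Fgg held 2 and 3 counts in all normals together, too few to set a fold.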

Other observations

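Other genes that set greater curvature 2 apart were of several kinds. Ltf, the iron-binding lactoferrin of secretions and neutrophil granules, was at 10.7, 567 and 6.55 CPM in greater curvature 1, 2 and 3, against 0.514, 4.45 and 0.765 CPM in the normals and at most 148 CPM at the other sites. Clca1, a secreted product of mucous cells, was at 2.09, 130 and 1.57 CPM against 0.735, 3146 and 405 CPM, so greater curvature 2 lay inside the range of the normals. Wif1, a secreted inhibitor of Wnt ligands, was at 0.906, 38.3 and 0.838 CPM against 2.35, 3.14 and 1.68 CPM, and at most 6.04 CPM at the other sites. These genes were chosen for the gap between greater curvature 2 and the other tumors of its site, so the values are a description.

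Genes of the interferon response and of antigen presentation had 0 calls of 14 and 12 tested, with medians of -0.59 and -0.20. Without greater curvature 2 the medians were -3.13 and -1.41, and 1 interferon gene was called lower, Usp18, which removes the ubiquitin-like protein ISG15 (2.44, 74.1 and 6.55 CPM in the tumors against 21, 68.8 and 28.1 CPM, -3.12, adjusted p = 0.0487). That 1 of 14 was below the share of all tested genes called lower in that fit, 9.48%. Levels of both lists were ordered by library: the median shift of the interferon list from the mean of the normals was -3.19, 0.82 and -2.45 in greater curvature 1, 2 and 3, and -0.93, 1.09 and -0.19 in normal 1, 2 and 3. For antigen presentation it was -0.94, 0.89 and -1.69 in the tumors and -0.58, 0.72 and -0.22 in the normals. In both lists greater curvature 2 and normal 2 were the highest libraries.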
